A study of Macaca fascicularis with 2 samples.

Results

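The genes described here make cholesterol, sense its level in the cell, move it between compartments or carry it out. A list of 30 such genes was drawn up by function, with earlier results of these data known. Of them, 28 stood in both deposited count tables under their own symbol, of 28162 genes in all. CYP51A1 and CYP27A1 stood under placeholder symbols and were found through their NCBI gene number; their values are given, but they are left out of the counts unless stated. RNA came from gastrocnemius, a calf muscle, of the cynomolgus macaque, Macaca fascicularis. The groups were non-lean, with a high fat diet, and lean, with a chow diet, each sequenced as 1 library, and the stated aim was to compare gene expression between obese and lean muscle. The labels state no age, sex or time on the diet, nor whether a library came from 1 animal or a pool.

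Cells obtain cholesterol by making it from acetate units through mevalonate, squalene and lanosterol, and by taking up lipoproteins. When membrane sterol is low, the escort protein SCAP carries the transcription factor SREBP2, the product of SREBF2, to the Golgi, where it is cut and then switches on synthesis and uptake genes. INSIG proteins hold SCAP back when sterol is plentiful. The liver X receptors (LXR), encoded by NR1H2 and NR1H3, respond to oxidised sterols and switch on export pumps such as ABCA1 and ABCG1. Muscle also needs the early part of the pathway for isoprenoids, among them the side chain of ubiquinone in the respiratory chain.

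The non-lean library held 12731973 counts and the lean library 15983348, and levels are given as scaled CPM, that is, counts relative to library size, where 1 count is 0.0748 CPM in the non-lean and 0.0657 CPM in the lean library. With 1 library per group there is no replicate error and no test, and the ratios compare these libraries, in which animal, sampling and library preparation cannot be told apart from diet. The protocol names single-end as well as paired-end reads, so the read layout of each library, and with it what a count stands for, is unclear. The bracketed 95% intervals of log2 ratios cover counting error only. Genes with a mean of at least 1 CPM over both libraries are called tested genes, of which there were 13703 with a median log2 ratio (non-lean over lean) of -0.01. All 12 skeletal muscle markers were among the tested genes, with 201774 CPM summed in the non-lean and 265089 CPM in the lean library, and the 8 liver markers summed to 2.54 CPM in the non-lean and 4.34 CPM in the lean library. Among them ALB had 0 counts in the non-lean and 11 in the lean library, and APOA1, chosen after its values were seen, had 12 counts in the non-lean and 4 in the lean library.

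Sterol synthesis genes of the list were mostly lower in the non-lean library, while its LXR and efflux genes lay near the middle of all genes. INSIG1, SREBF2, SOAT1, SC5D, SQLE and MSMO1 were at least 2-fold lower, of which SQLE and MSMO1 were short of 2-fold with a prior count of 5 and MSMO1 under total counts, and NPC1, 1.87-fold higher, was furthest in the other direction. Of the 28 genes, 27 were tested. Lower by 1.5-fold or more were 8 of 27 (29.6%), against 16.9% of all tested genes, and lower by 2-fold or more 6 of 27 (22.2%), against 7.21%. At least 1.5-fold higher was 1 of 27, against 13.7% of all tested genes, and none was 2-fold higher, against 4.96%. Counting intervals lay below 0 for 11 of 27, against 28.7% of all tested genes, and above 0 for 3, against 25.8%. The median log2 ratio was -0.31. INSIG1, SQLE and SOAT1 exceeded 1 CPM in the lean library alone, so these 3 passed the level filter through the group in which they were high. Without the filter, 9 of 28 were at least 1.5-fold lower, against 23.0% of all genes with a count. With a minimum mean of 5 CPM, it was 5 of 22, against 13.9% of all genes at that level.

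**Figure D1:**
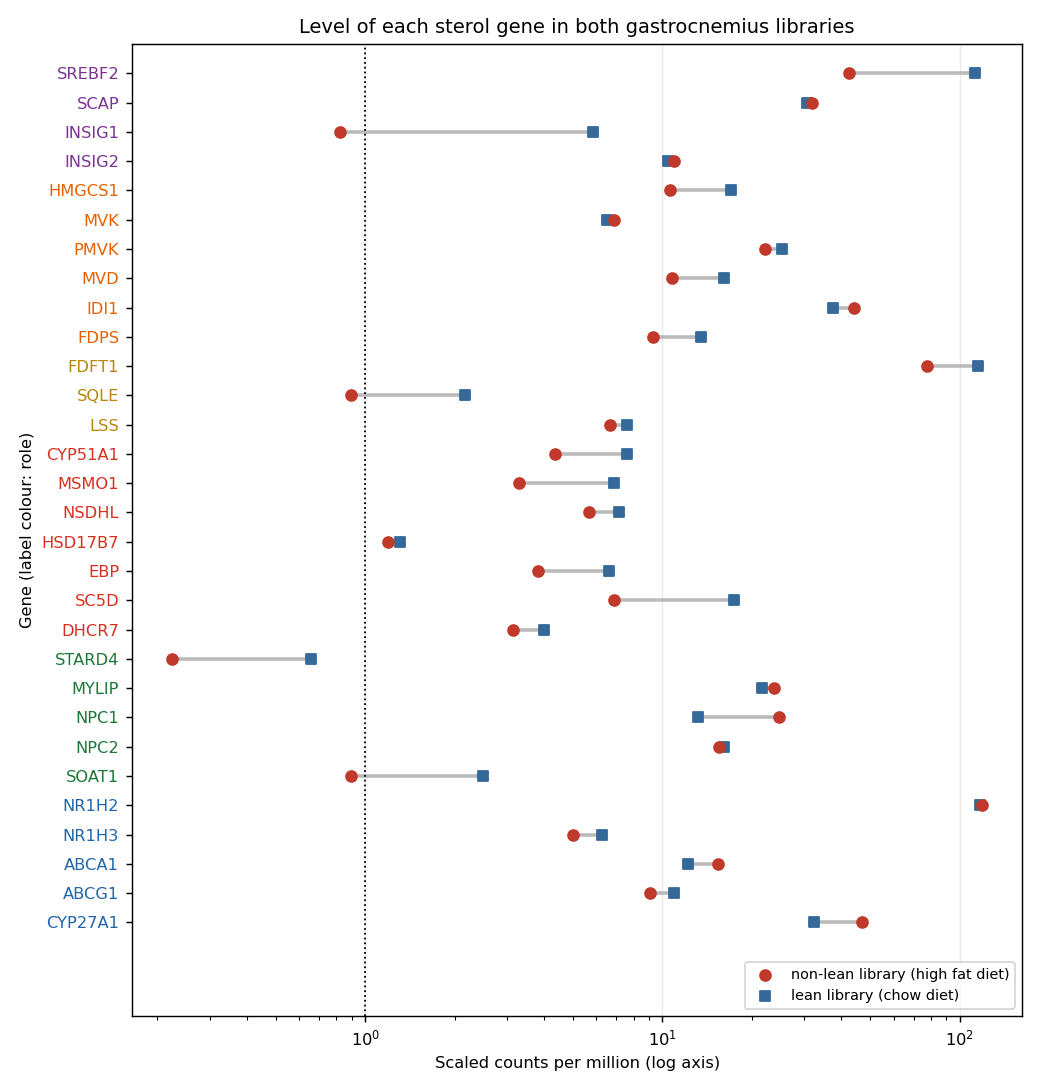
Scaled CPM on a log axis for each of the 30 genes in the non-lean library (circles) and the lean library (squares), with gene labels coloured by role and a dotted line at 1 CPM. The longest gap is that of INSIG1, at 0.823 CPM in the non-lean and 5.85 CPM in the lean library, and NR1H2 shows almost none, at 119 CPM in the non-lean and 117 CPM in the lean library.

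The sensing genes split into a lower pair and an even pair. INSIG1, the feedback inhibitor that is itself an SREBP target, had 11 counts in the non-lean library and 89 in the lean library, or 0.823 CPM in the non-lean and 5.85 CPM in the lean library. Its log2 ratio of -2.77 [-3.88, -1.92], 6.84-fold lower, was the lowest of the 30 genes, and 0.336% of tested genes had a lower one. INSIG2, which does the same work without depending on SREBP, had 146 counts in the non-lean and 159 in the lean library, a ratio of 0.06 [-0.27, 0.40]. SREBF2 had 566 counts in the non-lean library, against 1712 in the lean library, and levels of 42.3 CPM in the non-lean and 112 CPM in the lean library. It was 2.66-fold lower, at -1.41 [-1.55, -1.27], with the narrowest interval of the 6 genes that were 2-fold lower. SCAP had 427 counts in the non-lean and 468 in the lean library, a ratio of 0.05 [-0.14, 0.25]. The members of each pair therefore differed by unequal amounts between the libraries, INSIG1 and SREBF2 being low in the non-lean library and their partners even.

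Shares within a library do not depend on the scaling between libraries, and these were chosen after the values were seen. INSIG1 made up 7.01% of the INSIG1 and INSIG2 counts in the non-lean library (3.55 to 12.2, exact 95% Clopper-Pearson limits) and 35.9% in the lean library (29.9 to 42.2). SREBF2 made up 57.0% of the SREBF2 and SCAP counts in the non-lean library (53.9 to 60.1) and 78.5% in the lean library (76.7 to 80.2). INSIG1 passed the level filter through the lean library alone, so its lower share is a description. A share also depends on transcript length, so only its change between libraries can be read.

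The enzymes that lead from acetyl units to farnesyl diphosphate had the highest median of the synthesis steps, a log2 ratio of -0.37 over 6 genes. HMGCS1, the synthase at the entry, had 142 counts in the non-lean and 259 in the lean library and was 1.60-fold lower, at -0.68 [-0.99, -0.38]. It was the member just past the 1.5-fold line in the lower direction. MVD, which decarboxylates mevalonate diphosphate, lay just short of that line, with 144 counts in the non-lean and 246 in the lean library, at -0.58 [-0.89, -0.28]. FDPS, which makes farnesyl diphosphate, had 124 and 206 counts in the non-lean and lean libraries, at -0.54 [-0.88, -0.22].

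The kinases between them were nearer to even. MVK, mevalonate kinase, had 92 counts in the non-lean and 99 in the lean library, at 0.08 [-0.34, 0.51]. PMVK, the next kinase, had 296 and 385 in the non-lean and lean libraries, at -0.19 [-0.42, 0.03]. IDI1, the isomerase that prepares the building block for chain growth, was the one synthesis enzyme whose interval lay above 0, with 591 counts in the non-lean and 571 in the lean library, at 0.24 [0.07, 0.40]. Enzymes of one short pathway thus stood on both sides of the all-gene median. FDPS is known in human for processed pseudogenes, so its estimated count depends on how shared reads were divided.

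In squalene and lanosterol formation all 3 enzymes had ratios below 0, and the intervals of 2 lay below 0. FDFT1, squalene synthase, the first enzyme committed to sterols, had 1041 counts in the non-lean and 1761 in the lean library, at -0.57 [-0.68, -0.46]. SQLE, squalene epoxidase, a flux-controlling step, had 12 counts in the non-lean and 33 in the lean library. Its ratio of -1.24 [-2.36, -0.28] was 2.35-fold lower but rests on few reads, and its interval reaches from slightly to strongly lower. LSS, the cyclase that closes the lanosterol ring, had 89 and 116 counts in the non-lean and lean libraries, at -0.19 [-0.61, 0.22], which held 0.

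The late enzymes, which turn lanosterol into cholesterol, had a median of -0.79 over the 7 with CYP51A1 included. All 7 ratios lay below 0, although that of HSD17B7 lay above 0 when libraries were scaled by total counts. SC5D, the desaturase that acts on lathosterol, had 92 counts in the non-lean and 264 in the lean library. It was 2.51-fold lower, at -1.33 [-1.69, -0.99], the lowest of the synthesis enzymes. MSMO1, which oxidises the methyl groups of the early sterols, had 44 and 105 counts in the non-lean and lean libraries, at -1.06 [-1.61, -0.55]. CYP51A1, the lanosterol demethylase, had 58 counts in the non-lean and 116 in the lean library, at -0.81 [-1.29, -0.35]. EBP, which shifts a double bond in the sterol ring, had 51 and 101 in the non-lean and lean libraries, at -0.79 [-1.31, -0.30]. These 4 were the late enzymes with intervals below 0.

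The remaining late enzymes had ratios below 0 with intervals that held it. NSDHL, which works with MSMO1 in demethylation, had 76 counts in the non-lean and 109 in the lean library, at -0.33 [-0.78, 0.10]. DHCR7, the last reductase of one branch, had 42 and 61 in the non-lean and lean libraries, at -0.35 [-0.95, 0.24]. HSD17B7, a sterol ketone reductase, had 16 counts in the non-lean and 20 in the lean library, at -0.13 [-1.18, 0.89], and a difference of that size was not detectable at this depth. HSD17B7 also has pseudogene copies in human with which it may share reads. CYP51A1 overlaps AKAP9 in the T2T-MFA8v1.1 gene table, and AKAP9, chosen after its values were seen, had 1391 counts in the non-lean and 1083 in the lean library, a ratio of 0.55.

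**Figure D2:**
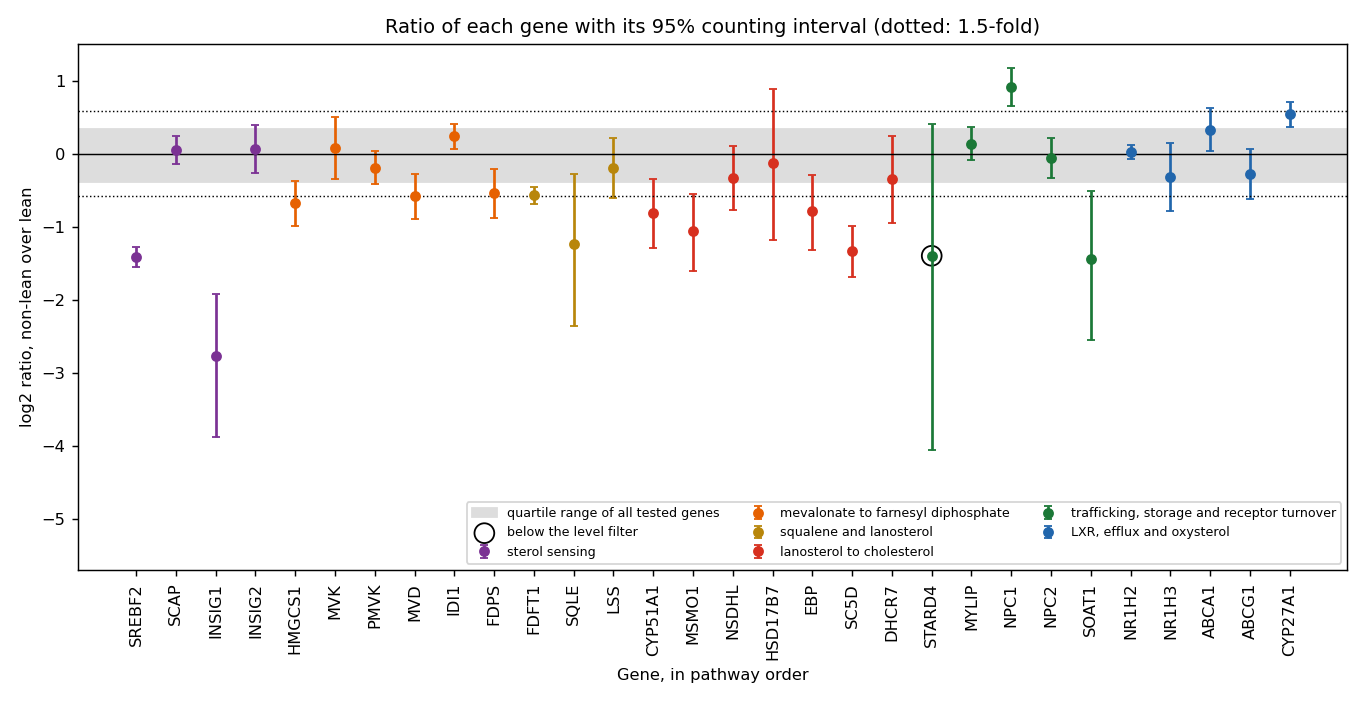
Log2 ratio (non-lean over lean) for each of the 30 genes in pathway order, with 95% counting intervals, the range between the quartiles of all tested genes as a grey band and dotted lines at 1.5-fold. Among the genes below the band are SREBF2, INSIG1 and, of the late enzymes, SC5D, MSMO1, CYP51A1 and EBP. NPC1, at 0.90, and CYP27A1, at 0.54, stand above it.

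The genes that move and store cholesterol went both ways. NPC1, the membrane protein that passes cholesterol out of lysosomes, had 331 counts in the non-lean and 201 in the lean library. It was higher at 0.90 [0.65, 1.17], and 93.9% of tested genes had a lower ratio. Its soluble partner NPC2, which hands cholesterol to it, had 207 counts in the non-lean and 245 in the lean library, at -0.06 [-0.33, 0.22]. SOAT1, which esterifies cholesterol for storage in droplets, had 12 counts in the non-lean and 38 in the lean library and was 2.71-fold lower, at -1.44 [-2.55, -0.51]. NPC1 and SOAT1, on either side of the free pool, had opposite signs. SOAT1 made up 3.50% of the SOAT1 and NPC1 counts in the non-lean library (1.82 to 6.03) and 15.9% in the lean library (11.5 to 21.2). This pair was chosen after its values were seen. SOAT1 passed the level filter through the lean library alone, so its lower share is a description.

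MYLIP, a ubiquitin ligase that marks lipoprotein receptors for breakdown and is an LXR target, was even, with 318 counts in the non-lean and 330 in the lean library, at 0.13 [-0.09, 0.36]. STARD4, a carrier of sterol through the cytosol and an SREBP2 target, was the gene below the level filter. It had 3 counts in the non-lean and 10 in the lean library, and its interval of -4.05 to 0.41 sets no direction. NPC1 overlaps RMC1 in the gene table, whose ratio was 0.16 with 140 counts in the non-lean and 143 in the lean library; RMC1 was chosen after its values were seen.

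None of the LXR and efflux genes was 1.5-fold apart. Their ratios ran from -0.31 to 0.33 in the receptors and pumps, with CYP27A1 at 0.54. NR1H2, the broadly expressed receptor, had 1590 counts in the non-lean and 1782 in the lean library, at 0.02 [-0.08, 0.12]. NR1H3, the receptor of macrophages, liver and fat, had 67 and 95 in the non-lean and lean libraries, at -0.31 [-0.79, 0.15]. ABCA1, which loads cholesterol onto lipid-poor apolipoprotein, had 205 counts in the non-lean and 186 in the lean library, at 0.33 [0.03, 0.62]. ABCG1, which exports to mature lipoprotein particles, had 121 counts in the non-lean and 167 in the lean library, at -0.28 [-0.63, 0.07]. ABCA1 made up 62.9% of the counts of both pumps in the non-lean library (57.4 to 68.1) and 52.7% in the lean library (47.3 to 58.0), and the difference between these shares was not tested. ABCA1 overlaps NIPSNAP3B in the gene table, which had 352 counts in the non-lean and 546 in the lean library, at -0.45, and was chosen after its values were seen. CYP27A1, which makes an oxysterol that activates LXR, had 627 counts in the non-lean and 492 in the lean library and was higher, at 0.54 [0.36, 0.71].

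Set side by side, the median log2 ratio was -0.54 over the 15 synthesis enzymes and -0.02 over the 8 tested genes of trafficking, storage, receptor turnover, LXR and efflux, called the trafficking and efflux genes, against -0.01 over all tested genes. The trafficking and efflux genes include no lipoprotein receptor, and the uptake genes of the wider pathway list had a median of -0.76 over 8 tested genes. With CYP51A1 and CYP27A1 included the medians were -0.56 over 16 and 0.02 over 9. At least 1.5-fold lower were 5 of 15 synthesis enzymes (33.3%) and 1 of 8 of the other genes (12.5%), beside the 16.9% of all tested genes. Ratios below 0 were found for 13 of 15 synthesis enzymes and for 4 of 8 of the others, against 50.8% of all tested genes. The synthesis enzymes summed to 213 CPM in the non-lean and 285 CPM in the lean library. The trafficking and efflux genes, here with STARD4 added, summed to 213 and 201 CPM in the non-lean and lean libraries. Of the counts of both arms, again with STARD4, synthesis enzymes took 50.0% in the non-lean library (48.7 to 51.3) and 58.7% in the lean library (57.5 to 59.8). FDFT1 and IDI1 give a large part of the synthesis sum, and NR1H2 of the other, so the sums follow those genes.

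**Figure D3:**
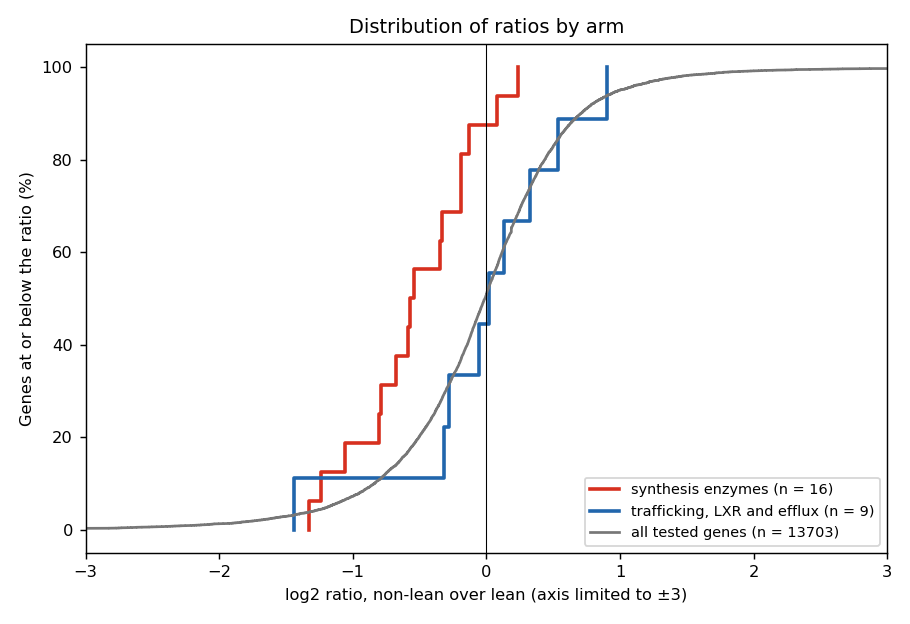
Cumulative share of genes at or below each log2 ratio (non-lean over lean), for 16 synthesis enzymes, 9 trafficking, LXR and efflux genes (CYP51A1 and CYP27A1 included) and 13703 tested genes. The synthesis curve lies left of the curve of all genes, with a median of -0.56, and the curve of the other arm, with a median of 0.02, lies around it, with SOAT1 at -1.44 as its lowest point.

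The files gave 84 transcript models for the 30 genes, of which 59 had counts. For 13 genes a single model held all counts, among them SREBF2, INSIG1, SC5D, SQLE and SOAT1, so no reads of these were divided among models of the same gene. SREBF2, at 1712.06 in the lean library, and SC5D, at 92.44 in the non-lean library, had estimated counts that were not whole. Of the other 17 genes, 9 had a model at 0 in the non-lean library alone and 5 had a model at 0 in the lean library alone, NR1H3 being in both groups. MSMO1 had 44.0 estimated counts in the non-lean library, all in the leading model. In the lean library that model had 39.2 and another had 57.2, so the leading model alone had a ratio of 0.36 where the gene had -1.06. ABCG1 likewise had 121 estimated counts in the non-lean library, all in the leading model, against 63.5 in that model and 104 in another in the lean library. Its leading model had a ratio of 1.12 where the gene had -0.28.

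INSIG2 held an even total while its models shifted. Its leading model had 107 estimated counts in the non-lean and 62.0 in the lean library, and the next model 38.9 in the non-lean and 97.2 in the lean library. MYLIP had a model with 114 in the non-lean and 0 in the lean library. The NPC1 models had 331 and 0 in the non-lean library, against 132 and 69.1 in the lean library. Whether the division of reads among similar models set these shifts was not tested.

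**Figure D4:**
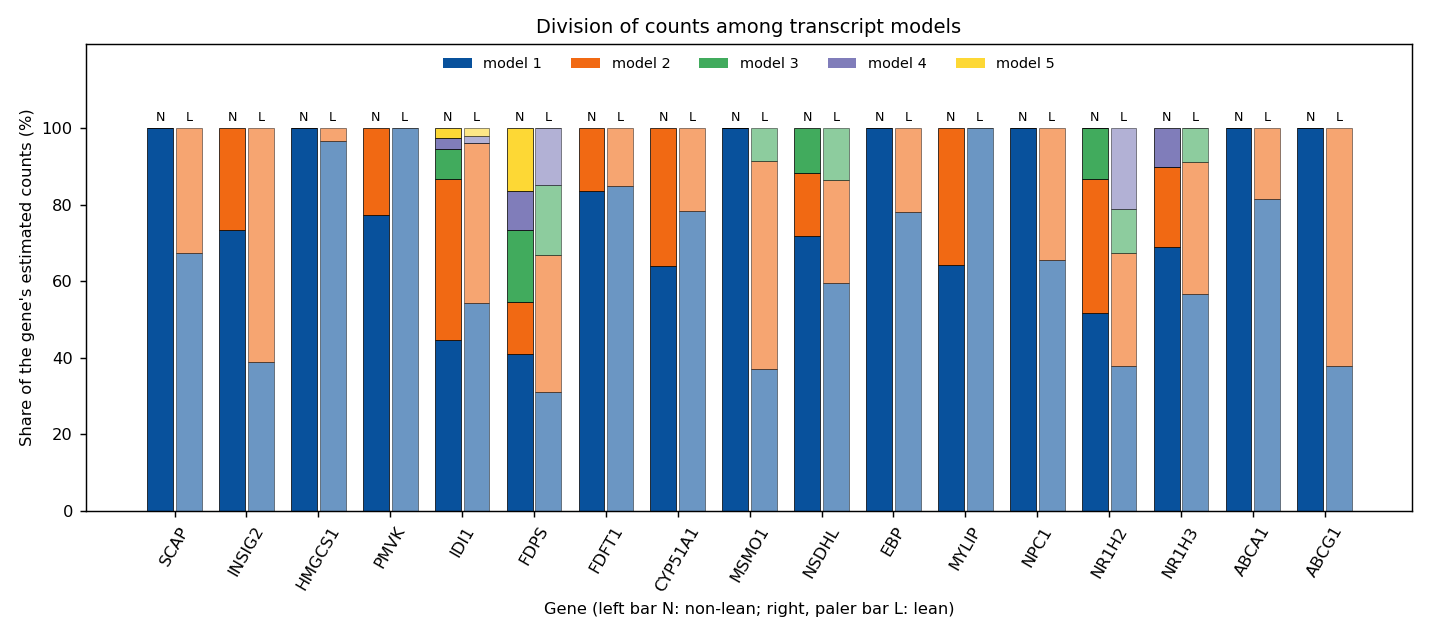
Share of a gene's estimated counts held by each transcript model, in percent, for the 17 genes with more than 1 model detected, with the non-lean library as the left bar (N) and the lean library as the right, paler bar (L). MSMO1, NPC1, SCAP and ABCG1 have a single model in the non-lean library, against 2 or more in the lean library, and MYLIP and PMVK the opposite.

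Other genes of the pathway gave a wider view. Of 60 tested genes in that list, 5 were at least 1.5-fold higher (8.33%, against 13.7% of all tested genes) and 13 at least 1.5-fold lower (21.7%, against 16.9% of all tested genes), with a median of -0.21. Among the 13 lower genes, 2 passed the level filter through the lean library alone, where they were high. The synthesis genes of that list had a median of 0.06 over 5 tested genes, and 4 of the 5 intervals held 0. ACAT2, which supplies acetoacetyl units to HMGCS1, was the lowest of these 5. It was 3.21-fold lower, with 18 counts in the non-lean and 67 in the lean library, at -1.68 [-2.55, -0.94]. Genes of the isoprenoid branch, which leaves the pathway at farnesyl diphosphate, had a median of 0.06 over 7 genes, and all 7 intervals held 0. They reached from DHDDS, of dolichol synthesis, at -0.30 [-0.63, 0.03] to PDSS1, of the ubiquinone side chain, at 0.31 [-0.15, 0.79].

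Partners of sterol sensing had a median of -0.36 over 10 genes, with 6 intervals below 0 and 1 above. SREBF1, which encodes the sister factor SREBP1, had 663 counts in the non-lean and 1614 in the lean library and was 2.14-fold lower, at -1.10 [-1.23, -0.97]. AUP1, a lipid droplet protein that also takes part in protein degradation at the endoplasmic reticulum, was higher at 0.38 [0.26, 0.49]. Lipoprotein uptake genes had a median of -0.76, and 5 of 8 were at least 1.5-fold lower (62.5%, against 16.9% of all tested genes). Of these 5, 1 passed the level filter through the lean library alone, where it was high. VLDLR, the receptor for very low density lipoprotein, chosen after its values were seen, had 539 counts in the non-lean and 1124 in the lean library, at -0.87 [-1.02, -0.72]. LRP1, a large endocytic receptor, had 1101 and 2378 in the non-lean and lean libraries, at -0.92 [-1.03, -0.82].

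Other trafficking genes had a median of 0.05 over 17 genes, and 3 were at least 1.5-fold higher (17.6%, against 13.7% of all tested genes) and 2 at least 1.5-fold lower (11.8%, against 16.9%), shares near those of all genes. NCEH1, a cholesteryl ester hydrolase, had 101 counts in the non-lean and 58 in the lean library, at 0.98 [0.51, 1.48]. SCP2, a peroxisomal sterol carrier, had 1100 and 761 in the non-lean and lean libraries, at 0.72 [0.58, 0.85]. GRAMD1C, of a family that carries sterol from the plasma membrane, was the lowest of these genes, at -2.24 [-4.08, -0.96]. It had 5 counts in the non-lean and 29 in the lean library, and passed the level filter through the lean library alone, where it was high. The LXR partners and targets outside the 30 genes had a median of -0.32 over 13 genes, with 8 intervals below 0 and 3 above. RXRA, a dimer partner of LXR, was 2.26-fold lower, with 1629 counts in the non-lean and 4185 in the lean library. RXRG, of the same receptor family, had 2885 counts in the non-lean and 3907 in the lean library, at -0.25 [-0.32, -0.18]. The LXR targets PLTP, at -0.83 [-1.16, -0.51], and SMPDL3A, at 0.47 [0.18, 0.76], had opposite signs.

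Markers of other cells also differed between the libraries, by amounts that varied among the lists. In bulk muscle, fewer cells of a type and less RNA per cell cannot be told apart. Macrophage markers summed to 47.0 CPM in the non-lean and 154 CPM in the lean library, and 11 of 14 tested ones were at least 2-fold lower (78.6%, against 7.21% of all tested genes), with a median of -1.49. NR1H3, ABCA1 and ABCG1, which macrophages express, stood at -0.31, 0.33 and -0.28 beside it, and SOAT1 at -1.44. Fibroblast markers summed to 957 CPM in the non-lean and 1932 CPM in the lean library, with a median of -1.21 over 14 genes. The adipocyte markers had a median of 0.00 over 13 genes, between -3.55 for ADIPOQ and 0.91 for AQP7, a glycerol channel. ADIPOQ, the fat cell hormone adiponectin, had 3 counts in the non-lean and 46 in the lean library, with an interval of -6.08 to -2.11, and 5 of 13 were at least 2-fold lower (38.5%, against 7.21% of all tested genes). Of these 5, ADIPOQ, CIDEC, CIDEA and TRARG1, the last 3 chosen after their values were seen, passed the level filter through the lean library alone, where they were high. Endothelial markers had a median of -0.33 over 12 genes and skeletal muscle markers one of -0.32 over 12. None of the tested markers of these lists was at 0 in either library. Immediate early genes, a list added after the data were seen, respond quickly to stress or handling. They had a median of -1.83 over 10 tested genes, and 6 were at least 2-fold lower (60%, against 7.21% of all tested genes). Their part, and that of each cell type, in the sterol gene ratios was not tested.

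**Figure D5:**
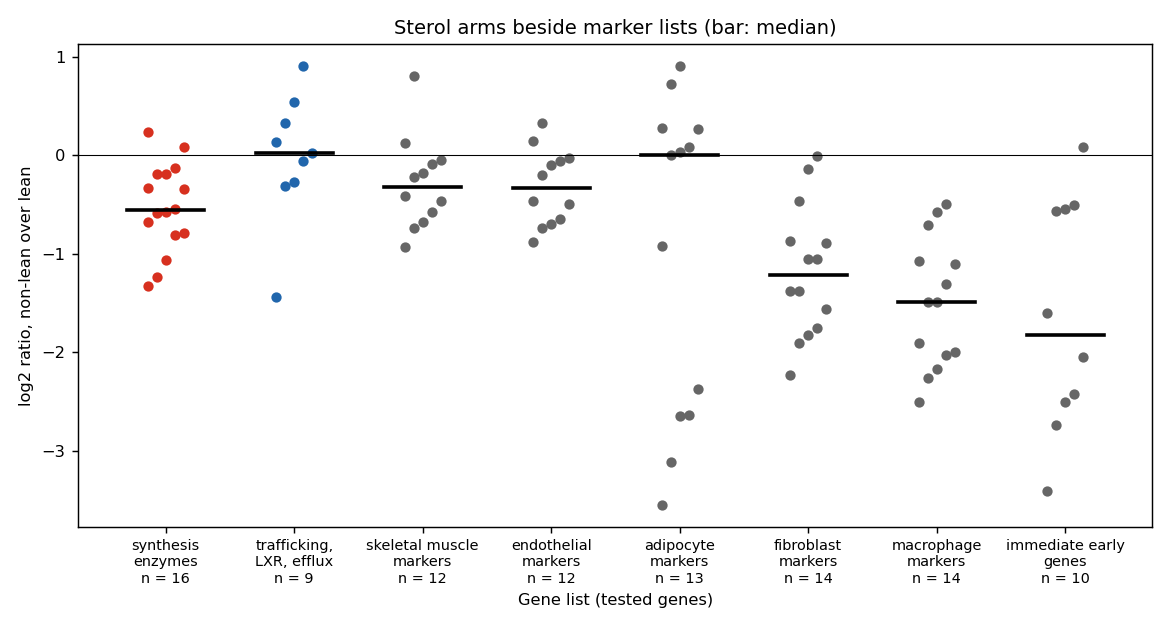
Log2 ratio (non-lean over lean) for tested genes of both sterol arms (CYP51A1 and CYP27A1 included) and of 6 marker lists, with each gene as a point and the median as a bar. Medians run from -1.83 for immediate early genes and -1.49 for macrophage markers to -0.56 for synthesis enzymes and 0.02 for trafficking, LXR and efflux genes.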

How the data were processed

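Expected counts per RefSeq transcript model were deposited by the authors, 1 table per library, with 76183 models each. RSEM 1.3.3, STAR 2.7.8a and Trim Galore 0.6.6 are listed, without roles, per the submitters' processing notes. The genome build is not given in the sources used here. No strand-marking step is named in the labels' protocols, so overlapping genes cannot be told apart by strand. The expected counts of a gene's models were added up, and the sum was rounded. A RefSeq gene table of T2T-MFA8v1.1 gave only names (720 placeholders by gene number, 593 older symbols by transcript) and, from its gene coordinates, overlaps. Whether the reads were counted on that assembly is not known. Scaling used edgeR 4.0.16 (R 4.3.3) with its trimmed mean of M-values, giving factors of 1.05 (non-lean) and 0.952 (lean). Log2 ratios used a prior count of 0.5, and intervals are exact Clopper-Pearson intervals of the count split (scipy 1.17.1), which cover counting error only since PCR reads carry no molecular identifiers. The interval step was tested on simulated data. Alternatives were total counts, DESeq2 1.42.0 size factors, other priors and filters, the leading model, and name matching. Genes and lists were chosen with earlier results of these data known. All 30 genes could be named, with the highest, lowest and most abundant of other lists. COQ2 was not matched, promoter sequences were not used here, and a few genes of the pathway list, while included in its medians and counts, are not reported here.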

Additional observations from a re-analysis of the deposited data

How the results depend on the processing

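With 1 library per group, library preparation and animal cannot be separated from diet, and low counts limit INSIG1, SQLE, SOAT1, HSD17B7 and STARD4. No paired analysis was possible because each group has 1 library. Under total counts the median of all tested genes moved up by 0.14, and the share of higher genes among those at least 2-fold apart was 56.0%, against 40.8%. Then 1 of 27 genes, NPC1, was at least 2-fold higher in place of 0, against 6.92% of all tested genes. The medians were -0.40 for synthesis enzymes and 0.12 for the other arm. DESeq2 size factors gave -0.57 and -0.05. Under total counts HSD17B7 and NPC2 changed sign, and under DESeq2 size factors NR1H2, all of whose intervals held 0. With a minimum mean of 5 CPM, 5 of 22 genes were at least 1.5-fold lower, against 13.9% of all genes at that level. At least 2-fold lower were 3 of 22, against 5.03%. With the leading transcript model alone, 5 of 27 genes were at least 1.5-fold and 2 at least 2-fold higher, near the 19.97% and 9.95% of all tested genes then. The median of the trafficking, LXR and efflux genes was 0.21, and MSMO1 turned from lower to a ratio of 0.36, since reads of its other models were then left out. IDI1 (-0.04), MYLIP (-0.51) and ABCG1 (1.12) also had the other sign then. The synthesis median was then -0.35. With a prior count of 5 no gene changed sign, and INSIG1 was at -2.37. At least 2-fold lower were then 4 of 27 genes in place of 6, against 5.93% of all tested genes, SQLE (-0.97) and MSMO1 (-0.98) falling short. Under total counts 5 of 27 were, against 5.43% of all tested genes, MSMO1 (-0.92) falling short.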
